A study of Mus musculus with 24 samples.

Results

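The Runx1 ChIP-seq experiment held 2 libraries, 1 from untreated cells and 1 from cells given vitamin C. After repeated intervals were dropped, keeping the highest score of each, the untreated list held 3908 peaks and the vitamin C list 6250 peaks, 10158 of the 365719 peaks in all ChIP-seq lists of the series. Both libraries came from mouse bone marrow made immortal by HOXA9, a homeobox protein whose expression sustains self-renewal of myeloid progenitors in culture. Their vector genotype was IDH1 R132H, a mutant isocitrate dehydrogenase that makes 2-hydroxyglutarate, an inhibitor of iron-dependent dioxygenases such as the TET enzymes. The labels name no clone, and the promoter that drives the vector is not stated in them. The cells grew in 10% serum with IL-3 at 6 ng/ml, IL-6 at 10 ng/ml and SCF, the ligand of Kit, at 20 ng/ml. Vitamin C, a cofactor that keeps the iron of these dioxygenases reduced, was brought to 0.345 mM at 0, 24 and 48 h, with harvest at 72 h. The labels do not give the harvest time of the untreated cells. Each condition had 1 library, so the values compare libraries, no test between conditions was possible, and no p-value was calculated. Intervals are exact Clopper-Pearson intervals at 95%. They cover counting error only and treat neighbouring peaks as independent, which they need not be.

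Runx1 is the DNA-binding subunit of core-binding factor. It binds DNA as a heterodimer with Cbfb, recognises a short GT-rich element, and works with partners such as PU.1, the ETS factor encoded by Spi1 that directs myeloid and B-cell fate. It is needed for the first definitive blood stem cells, and in the adult it acts in megakaryocyte, lymphoid and granulocyte-monocyte development. ChIP-seq lists places where chromatin bound to the protein was recovered, whether Runx1 touches the DNA itself or sits there through other proteins. H3K4me3 marks active promoters, H3K4me1 marks enhancers and promoter flanks, and H3K27ac marks active elements of both kinds.

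The promoters below carry the contrast between the 2 libraries: a strong peak in both (Pdk1, pyruvate dehydrogenase kinase), the gene of the factor itself (Runx1), a weak untreated peak that ranked high with vitamin C (Bnip3, a mitophagy receptor), peaks with vitamin C only (Slc2a1, a glucose transporter, Vegfa, the vascular growth factor, and Junb, an AP-1 subunit) and peaks in untreated cells only (Egr2, an early growth response factor, and Lyl1, a basic helix-loop-helix factor of progenitors). Each line gives the 250 bases before the RefSeq start, read from 5′ to 3′ on the gene's strand (assembly GRCm38.p6, that is mm10). Capitals mark each match to the RUNX element TGTGGT or its variant TGCGGT on either strand. The stretches were chr2:71872974-71873223 (plus strand) for Pdk1, chr16:92826075-92826324 (minus strand) for Runx1, chr7:138909507-138909756 (minus strand) for Bnip3 and chr4:119108495-119108744 (plus strand) for Slc2a1. Those of the other genes were chr17:46032378-46032627 (minus strand) for Vegfa, chr8:84978749-84978998 (minus strand) for Junb, chr10:67537316-67537565 (plus strand) for Egr2 and chr8:84701207-84701456 (plus strand) for Lyl1.
Pdk1: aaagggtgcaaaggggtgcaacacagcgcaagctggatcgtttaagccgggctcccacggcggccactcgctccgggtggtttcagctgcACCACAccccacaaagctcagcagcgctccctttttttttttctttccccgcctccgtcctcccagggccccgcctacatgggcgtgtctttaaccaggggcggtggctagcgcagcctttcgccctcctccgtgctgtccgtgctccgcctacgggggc
Runx1: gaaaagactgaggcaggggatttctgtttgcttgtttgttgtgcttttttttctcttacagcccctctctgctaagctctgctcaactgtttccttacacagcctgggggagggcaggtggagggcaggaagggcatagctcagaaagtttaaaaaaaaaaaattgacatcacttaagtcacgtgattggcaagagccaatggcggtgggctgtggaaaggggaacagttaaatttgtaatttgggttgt
Bnip3: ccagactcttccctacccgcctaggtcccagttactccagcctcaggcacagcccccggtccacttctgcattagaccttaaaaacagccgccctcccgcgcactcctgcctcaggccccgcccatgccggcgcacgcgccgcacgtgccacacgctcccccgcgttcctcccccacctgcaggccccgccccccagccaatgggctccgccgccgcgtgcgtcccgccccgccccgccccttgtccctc
Slc2a1: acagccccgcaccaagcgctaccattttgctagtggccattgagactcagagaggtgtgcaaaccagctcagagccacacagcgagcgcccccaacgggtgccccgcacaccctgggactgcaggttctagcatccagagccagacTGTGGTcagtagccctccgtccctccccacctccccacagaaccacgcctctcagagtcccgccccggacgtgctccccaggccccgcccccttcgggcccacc
Vegfa: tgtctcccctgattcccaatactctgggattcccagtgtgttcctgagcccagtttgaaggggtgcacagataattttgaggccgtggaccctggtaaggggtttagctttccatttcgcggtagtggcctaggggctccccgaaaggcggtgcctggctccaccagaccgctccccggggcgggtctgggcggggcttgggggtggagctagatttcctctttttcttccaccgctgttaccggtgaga
Junb: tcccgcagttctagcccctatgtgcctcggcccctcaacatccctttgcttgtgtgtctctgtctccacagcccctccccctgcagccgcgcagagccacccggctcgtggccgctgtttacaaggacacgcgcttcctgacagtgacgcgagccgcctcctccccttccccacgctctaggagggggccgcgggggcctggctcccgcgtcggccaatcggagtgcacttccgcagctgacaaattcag
Egr2: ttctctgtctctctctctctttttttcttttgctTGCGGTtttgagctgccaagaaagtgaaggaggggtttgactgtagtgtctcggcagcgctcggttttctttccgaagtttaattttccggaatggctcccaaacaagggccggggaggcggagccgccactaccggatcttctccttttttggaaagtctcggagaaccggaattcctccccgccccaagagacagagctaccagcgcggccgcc
Lyl1: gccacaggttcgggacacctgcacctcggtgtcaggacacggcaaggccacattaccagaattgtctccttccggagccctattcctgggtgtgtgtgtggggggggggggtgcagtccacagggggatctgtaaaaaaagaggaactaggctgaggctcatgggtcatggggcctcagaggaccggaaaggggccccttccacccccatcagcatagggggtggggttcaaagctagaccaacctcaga
The match of Pdk1 began 160 bases before the start and lay within the peaks of both libraries. That of Slc2a1 began 104 bases before the start, within the vitamin C peak, and that of Egr2, the variant, began 216 bases before the start, within the untreated peak. The other 5 stretches held neither element, which says only that these letters are not in those windows.

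The first comparison asked which Runx1 sites were listed in both libraries. The vitamin C list was the longer one, and it held most of what the untreated list held. Of the 3908 untreated peaks, 3196 (81.8%, interval 80.5 to 83.0%) overlapped a vitamin C peak by at least 1 bp, and 712 did not. Of the 6250 vitamin C peaks, 3169 (50.7%, 49.5 to 52.0%) overlapped an untreated peak, and 3081 did not. The strongest sites were common to both: 497 of the 500 untreated peaks with the highest scores and all 500 of the corresponding vitamin C peaks were found in the other list. The score is the authors' own value per peak, its scale is not stated, and here it serves to rank peaks within a list.

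Runx1 peaks were promoter peaks in the main, meaning within 1 kb of a protein-coding start. The promoter share was 68.1% (66.6 to 69.5%) in the untreated list and 75.6% (74.5 to 76.7%) with vitamin C, while 51.5% and 63.2% of peaks covered a start. PU.1 peaks of the same cells lay elsewhere, with 9.42% of 61611 untreated and 10.3% of 23522 vitamin C peaks at promoters. The 2 sets of Runx1 peaks found in 1 library only were unlike each other. Of the 712 untreated-only peaks 17.0% (14.3 to 20.0%) were at promoters (30.2% of 1194, once the vitamin C list was limited to its 3908 highest-scoring peaks), and 184 (25.8%) lay more than 50 kb from any start. Of the 3081 vitamin C-only peaks 71.6% (69.9 to 73.2%) were at promoters, near the 79.4% of shared peaks, and 188 (6.10%) lay beyond 50 kb.

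Seen from the untreated list, promoter sites were nearly all listed again and distal sites were not. With vitamin C, 2539 of 2660 promoter peaks (95.5%, 94.6 to 96.2%) and 657 of 1248 distal peaks (52.6%, 49.8 to 55.4%) were found again. Distal peaks had lower scores than promoter peaks (medians 6.04 and 8.96), so each list was also split by score into 4 groups of equal size. In the lowest group, 85.7% of promoter and 37.2% of distal untreated peaks were found again. In the next 2 groups the shares were 93.3% and 99.1% for promoters and 46.9% and 65.8% for distal peaks. In the highest group they were 100% of 832 promoter peaks and 91.0% (85.2 to 95.1%) of 145 distal peaks. The intervals of promoter and distal peaks did not overlap in any of the 4 groups. Seen from the vitamin C list, 53.3% of promoter and 42.5% of distal peaks had an untreated counterpart. The order was thus the same over the whole list, with intervals that did not overlap, but not in every score group. In the lowest group of the vitamin C list 14.1% (11.9 to 16.5%) of promoter and 24.6% (21.3 to 28.2%) of distal peaks had one. In the highest group 94.1% and 90.2% had one.

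**Figure D1:**
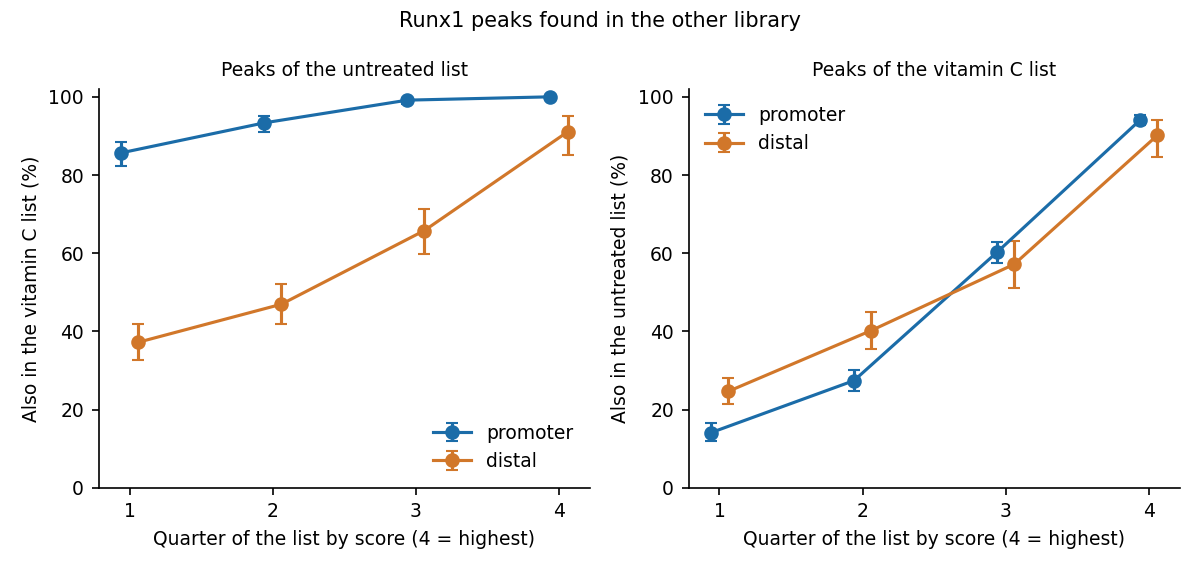
Share of Runx1 peaks also found in the other library (%, vertical axis) by score group of the list (horizontal axis, 4 the highest), for promoter peaks (blue) and distal peaks (orange), with 95% exact intervals as bars. For untreated peaks (left) the promoter points run from 85.7 to 100% and lie above the distal points, 37.2 to 91.0%, while for vitamin C peaks (right) both kinds climb together from 14.1% and 24.6% to 94.1% and 90.2%.

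PU.1 lists of the same cells showed a much smaller gap between promoter and distal sites. Of untreated PU.1 peaks 40.4% (39.2 to 41.7%) at promoters and 35.7% (35.3 to 36.1%) at distal sites were also listed with vitamin C. The PU.1 list was shorter with vitamin C and the Runx1 list longer. Of the 61611 untreated PU.1 peaks 22257 (36.1%) were found again, and of the 23522 vitamin C PU.1 peaks 95.2% were in the untreated list.

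Peaks found in 1 library only were the weaker and narrower ones of their list. In the untreated list the median score was 4.62 for untreated-only and 8.96 for shared peaks, with median widths of 207 and 286.5 bp. In the vitamin C list it was 8.34 for vitamin C-only and 31.3 for shared peaks, with median widths of 247 and 401 bp. Scores and widths moved together across peaks (Spearman's rho 0.62 untreated and 0.71 with vitamin C). The whole lists had median scores of 7.78 and 14.5, highest scores of 173 and 271, and covered 1207 and 2229 kb. The depth of the ChIP libraries is unknown, and the input libraries were not analysed here, so a more deeply sequenced or better enriched vitamin C library and wider Runx1 binding cannot be told apart in these lists.

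Each shared site was then paired with its counterpart, giving 3156 pairs, 2503 at promoters and 653 distal. The order of sites by score was similar in the 2 libraries (Spearman's rho 0.70 across pairs, 0.74 at promoters and 0.52 at distal sites). Promoter pairs had median scores of 10.0 untreated and 35.5 with vitamin C, and distal pairs of 7.62 and 14.1. The listed score was the larger one with vitamin C in 96.8% of promoter and 78.7% of distal pairs. Ranked among the 3156 pairs, which needs no common scale, the median promoter site stood at 1447.5 untreated and 1405.5 with vitamin C, and the median distal site at 1902.5 and 2429.5. Distal sites therefore took lower places among the shared sites of the vitamin C library.

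**Figure D2:**
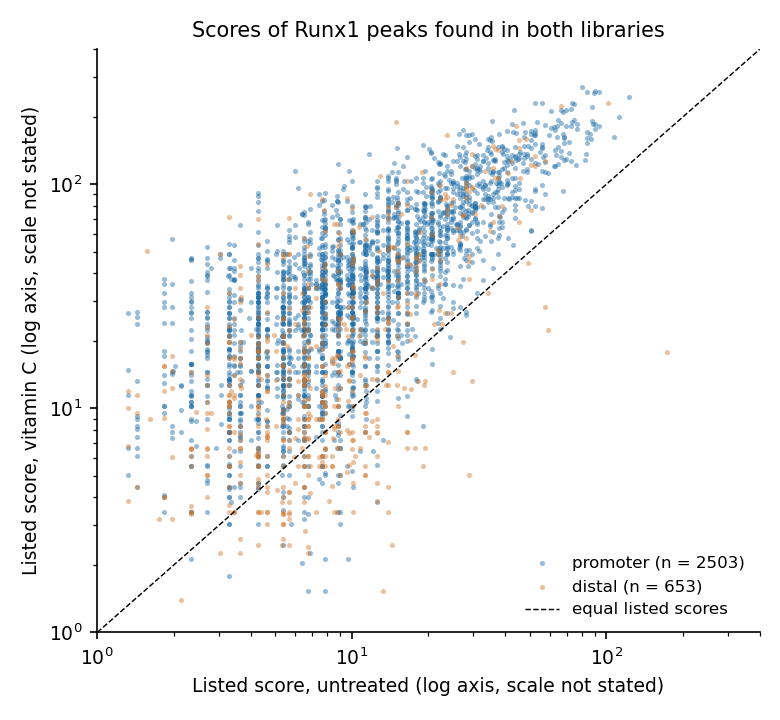
Listed Runx1 score of each shared site in the untreated library (horizontal log axis) and the vitamin C library (vertical log axis), with 2503 promoter sites in blue, 653 distal sites in orange and a dashed line where both listed scores are equal. Most promoter sites lie above the line, and the sites below it, to the right, are largely distal, the farthest being the site listed at 173 untreated and 17.9 with vitamin C.

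The highest score of the untreated list belonged to a distal site that ranked far lower with vitamin C. This peak, chr17:4626103-4626623, was listed at 173 untreated and 17.9 with vitamin C, and stood 1st and 2213th among the shared pairs. It lay 368451 bp from the nearest start, that of Arid1b, outside every histone peak of both conditions, and overlapped a PU.1 peak in both (scores 44.6 and 106). The next sites kept high scores in both. Zfpm1, which encodes the GATA1 cofactor FOG-1, had a promoter peak listed at 122 and 246 (chr8:122280920-122282211), and RNA of 53.8 and 35.2 RPKM. Promoter peaks at Uba3, a subunit of the NEDD8-activating enzyme (107 and 162), Tpst2, a protein tyrosine sulfotransferase (93.8 and 258), and Gm2a, the GM2 ganglioside activator (93.3 and 182), followed. In all, 8 of the 10 strongest shared peaks were at promoters, 7 overlapped an untreated PU.1 peak and 2 a vitamin C PU.1 peak.

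The sites whose place moved most were picked out after their values were seen. Toward a better place with vitamin C stood promoter peaks at Msrb1, a methionine sulfoxide reductase (4.28 untreated, 91.0 with vitamin C), Scarb1, the HDL receptor (4.28 and 83.1), and Sdhc, a subunit of succinate dehydrogenase (3.64 and 65.4). Itga2b, the megakaryocyte integrin and a known RUNX1 target, had a peak 2409 bp from its start listed at 3.29 and 71.0, while its RNA was 148 and 137 RPKM. Toward a better place untreated stood distal peaks, 3657 bp from the start of Tox2 (28.9 and 5.04), 66946 bp from that of Aff3 (29.5 and 13.2) and 53703 bp from that of Tiam1 (13.8 and 3.44). Of the 12 sites that moved most this way, 1, at Tnrc6b, was a promoter peak.

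The strongest sites of each 1-library set differed in kind as the sets did. Among vitamin C-only peaks, 9 of the 10 highest were promoter peaks, and the 10 had scores of 58.6 to 70.1. Among them were Lmf1, a chaperone of lipases (70.1), Spata2l (68.1), Kctd5, an adaptor of a ubiquitin ligase (66.3), Pdcd6, a calcium-binding protein (65.4), and Gmps, GMP synthetase (61.0). The RNA of Lmf1 (4.59 and 5.60 RPKM), Pdcd6 (50.7 and 52.5 RPKM) and Gmps (12.3 and 13.0 RPKM) differed little. That of Kctd5 was 12.7 and 18.7 RPKM, and that of Spata2l was 2.28-fold lower with vitamin C (3.53 and 1.55 RPKM). Among untreated-only peaks none of the 10 highest was at a promoter, 6 lay beyond 50 kb of any start and 5 lay outside every histone peak. Their scores were 16.1 to 58.9, led by chr6:132463591-132463923, which is 99457 bp from the start of Gm8882, followed by a peak 28569 bp from Arntl2, a circadian clock factor (26.5), and another 19365 bp from Ly75, the DEC-205 receptor (22.9).

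The next comparison asked what chromatin surrounded the peaks. Runx1 sites lay in chromatin that carried H3K4me3 and H3K27ac in both conditions, and the untreated-only sites were the richest in H3K4me1 and PU.1. Of untreated-only peaks 61.4% (57.7 to 65.0%) overlapped untreated H3K4me1 and 59.1% (55.4 to 62.8%) an untreated PU.1 peak. Of the 3196 shared untreated peaks, 799 lay in untreated H3K4me1 and 1320 (41.3%) in untreated PU.1, and of vitamin C-only peaks 30.7% and 32.6% did. H3K27ac of the same condition covered 78.4% of untreated-only, 87.8% of shared and 81.2% of vitamin C-only peaks.

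Since the untreated-only set held so few promoters, the same shares were taken at distal sites alone. There untreated H3K4me1 covered 67.7% (63.7 to 71.4%) of 591 untreated-only, 58.0% (54.1 to 61.8%) of 657 shared and 55.8% (52.5 to 59.1%) of 876 vitamin C-only peaks. Untreated PU.1 peaks covered 61.8% (57.7 to 65.7%), 56.2% (52.3 to 60.0%) and 42.7% (39.4 to 46.1%) of them. Distal vitamin C-only sites thus overlapped PU.1 less often than the other distal sites, with intervals that did not overlap. H3K27ac of the untreated list covered 76.3%, 81.1% and 70.2% of the 3 sets, and of the vitamin C list 73.6%, 79.0% and 68.4%. The H3K27ac state at untreated-only distal sites was therefore listed alike in both conditions: 72.9% overlapped a peak in both, 3.38% an untreated peak alone and 0.677% a vitamin C peak alone. H3K4me3 of the untreated list covered 78.7%, 86.9% and 78.2% of the 3 distal sets. Distal here means only away from the protein-coding starts used, and whether other starts lie at these sites was not tested. Distal PU.1 peaks of the untreated cells were less often in these marks, with 25.9% in H3K27ac, 25.7% in H3K4me3 and 39.7% in H3K4me1.

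The overlap with H3K4me1 and PU.1 was lower with vitamin C in every set. At untreated-only distal sites it was 39.9% for H3K4me1 and 40.9% for PU.1 with vitamin C, and at vitamin C-only distal sites 37.3% and 28.8%. The H3K4me1 list itself covered 183 Mb untreated and 108 Mb with vitamin C, and the PU.1 list 20.6 and 6.89 Mb, while H3K27ac covered 51.9 and 51.4 Mb and H3K4me3 54.7 and 55.0 Mb. The part of these list sizes in the lower shares was not tested. Of untreated-only distal Runx1 peaks in an untreated PU.1 peak, 225 of 365 (61.6%, 56.4 to 66.7%) also overlapped a vitamin C PU.1 peak. Of shared distal ones 235 of 369 did (63.7%, 58.5 to 68.6%). These shares count Runx1 peaks, while the 35.7% of all distal untreated PU.1 peaks listed again counts PU.1 peaks. Counted as PU.1 peaks at any position, 49.7% (47.3 to 52.0%) of those in an untreated Runx1 peak were listed again. Outside all Runx1 peaks 35.5% (35.1 to 35.9%) were. At promoters, 345 of 951 shared Runx1 peaks in untreated PU.1 (36.3%, 33.2 to 39.4%) overlapped a vitamin C PU.1 peak. Of the untreated-only promoter ones 28 of 56 did (50.0%, 36.3 to 63.7%). Of all promoter untreated PU.1 peaks, again counted as PU.1 peaks, 40.4% were listed again. The distal PU.1 peaks under Runx1 were stronger than distal PU.1 peaks at large. Median untreated PU.1 scores were 20.6 at untreated-only and 16.3 at shared distal Runx1 peaks, and 8.78 over all distal PU.1 peaks. The part of their strength was not tested. A distal Runx1 peak in an untreated PU.1 peak was found again with vitamin C in 50.3% of cases (46.6 to 54.0%) and one outside in 56.0% (51.6 to 60.4%), intervals that overlap. Seen from the vitamin C list the order was the other way. There 50.2% (46.6 to 53.8%) of distal peaks in untreated PU.1 had an untreated counterpart. Outside it 35.1% (31.7 to 38.5%) had one, and these intervals did not overlap.

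**Figure D3:**
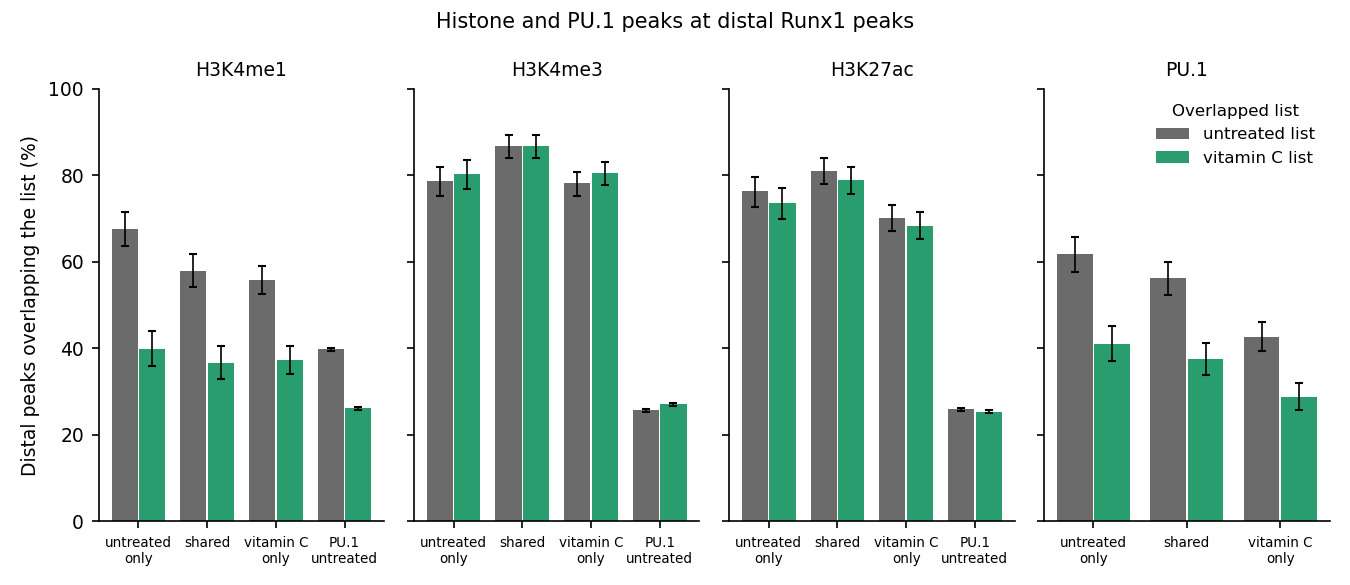
Share of distal peaks (%, vertical axis) that overlap the untreated (grey) or vitamin C (green) list of H3K4me1, H3K4me3, H3K27ac and PU.1, for untreated-only, shared and vitamin C-only Runx1 peaks and, in the 3 histone panels, all distal untreated PU.1 peaks; bars are 95% exact intervals. Runx1 sets lie at 68.4 to 86.9% in H3K4me3 and H3K27ac where distal PU.1 peaks lie at 25.7% and 25.9% in the untreated lists, and the grey bars of H3K4me1 and PU.1 stand above the green ones.

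A few Runx1 peaks lay outside every histone peak of both conditions. They made up 6.74% of untreated-only peaks (48 of 712), 1.28% of the shared untreated peaks (41 of 3196), 2.30% of vitamin C-only peaks (71 of 3081) and 0.915% of the shared vitamin C peaks (29 of 3169). Of the 48 untreated-only ones 10 overlapped a PU.1 peak in both conditions and 19 in neither, and of the 71 vitamin C-only ones 7 and 56.

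The genes nearest to the peaks, within 50 kb, were then set beside the RNA-seq libraries. A Runx1 peak of either library lay near 26.1% of the 21887 protein-coding genes and near 49.7% of the 9856 measured ones, those that reached 1 RPKM in either library. Among the measured genes 23.7% had a vitamin C-only peak and 3.75% an untreated-only peak nearby. RNA was 2-fold or more higher with vitamin C for 2.33% of measured genes and 2-fold or more lower for 1.88%, with a median log2 difference of −0.04 (all log2 values are vitamin C over untreated, of RPKM plus 0.5, which understates the difference of low genes). Genes with shared peaks alone seldom passed 2-fold in either direction, with 31 of 2278 higher (1.36%, 0.926 to 1.93%) and 10 lower (0.439%, 0.211 to 0.806%). For genes without a nearby peak these shares were 2.72% and 2.82% of 4958.

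The other sets can share genes, since a gene may have peaks of several kinds. Genes near vitamin C-only peaks stood close to the background for higher RNA, with 54 of 2334 (2.31%, 1.74 to 3.01%), and below it for lower RNA, with 27 (1.16%, 0.764 to 1.68%). Of the 370 measured genes near an untreated-only peak, 14 were higher (3.78%, 2.08 to 6.27%) and 12 lower (3.24%, 1.69 to 5.60%), with intervals that overlap. The share with 2-fold higher RNA was larger for genes with a distal vitamin C-only peak, 28 of 455 (6.15%, 4.13 to 8.77%), than for those with a promoter one, 30 of 1957 (1.53%, 1.04 to 2.18%). Distal shared and distal untreated-only peaks stood beside 4.84% and 4.51% higher genes, within the interval of the distal vitamin C-only set. The larger share of higher genes thus went with distal position, and no difference in it between the 3 distal sets was detectable at these numbers. Lower genes made up 3.08% (1.69 to 5.11%) near distal vitamin C-only and 3.38% (1.56 to 6.33%) near distal untreated-only peaks. Near distal shared peaks they made up 0.855% (0.177 to 2.48%), and near promoter vitamin C-only peaks 0.766% (0.430 to 1.26%). Genes of the distal and promoter sets had like RNA levels, with untreated medians of 18.5 RPKM (distal vitamin C-only) and 18.7 RPKM (promoter vitamin C-only).

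Of the 17 Runx1 partners and relatives 9 had a peak nearby, 8 of them a shared one. All 9 were among the 15 measured genes, where 49.7% of all measured genes had a peak. None of the 15 passed 2-fold in RNA, beside 2.33% higher and 1.88% lower among all measured genes, shares too small for a list of this length to stand apart. Runx1 itself had a shared peak over its RefSeq start, listed at 10.8 untreated and 22.6 with vitamin C. It also had an untreated-only peak 24236 bp from a start (4.30) and vitamin C-only peaks 472 and 43134 bp from a start (5.04 and 10.7), and its RNA stood at 52.5 and 66.3 RPKM. Cbfb, the partner subunit, had a weak promoter peak (3.45 and 6.43) and 44.2 and 61.3 RPKM. Runx3, a paralog, was one of the promoter sites with the lower listed score under vitamin C (8.96 and 6.66). The Groucho corepressor genes Tle1 (13.8 and 42.4), Tle3 (22.1 and 86.2) and Tle4 (20.7 and 60.9) and the corepressor gene Cbfa2t2 (22.1 and 88.1) had stronger ones, that of Tle3 lying 1543 bp from the start. Runx2 and Runx1t1 had none. In this and the other lists, members without a peak are named after their values were seen.

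Of 17 stem and progenitor regulators 4 had a peak, and of 16 myeloid transcription factors 5, beside 26.1% of all protein-coding genes. All 4 were among 16 measured regulators and all 5 among 12 measured factors. The count of factors stood near, and that of regulators below, the 49.7% of all measured genes that had a peak. None was listed near Tal1, Gata2, Meis1, Hoxa9, Kit, Cebpa or Irf8. Spi1, which encodes PU.1, had a promoter peak listed at 5.65 and 7.21 and RNA of 105 and 83.0 RPKM. Lyl1 had its promoter peak in the untreated list alone (5.37), with RNA of 201 and 127 RPKM. Gfi1, a repressor that favours granulocytes, had an untreated-only promoter peak (4.30) and a shared peak 23894 bp away (4.30 and 25.4), and its RNA stood 2.82-fold lower with vitamin C (52.0 and 18.4 RPKM). Egr2 had an untreated-only promoter peak (7.82) and RNA of 0.142 and 1.99 RPKM. Bhlhe40, a stress-responsive repressor, had shared peaks over its promoter (26.5 and 35.3) and 29526 bp away (10.7 and 21.0), and RNA of 110 and 235 RPKM.

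Genes of mature myeloid and lineage proteins are read against the same 26.1%, and the measured ones against 49.7%. Of 11 granule protein genes, 6 of them measured, only Prtn3, proteinase 3, had a peak. It had an untreated-only peak 1462 bp from its start (8.80) and a vitamin C-only peak 1104 bp from it (18.4). Its RNA was 285 and 107 RPKM. Mpo, Elane and Ctsg, its neighbours in function, had none. Of 17 cytokine receptor and surface genes, all measured, 6 had a peak, above the 26.1% but below the 49.7% of all measured genes. Among them were Il3ra and Csf2ra, chains of the IL-3 and GM-CSF receptors (8.96 and 26.8, and 20.7 and 27.5). Fcgr3, an Fc receptor, had an untreated-only promoter peak (3.29). Csf1r, a well-studied RUNX1 target of monocytes, had no peak, and its RNA stood at 0.874 and 1.35 RPKM. Of 14 lymphoid and megakaryocytic RUNX1 targets, 3 of them measured, 2 had a peak, Itga2b, given above, and Zbtb7b, the CD4-lineage factor ThPOK (26.0 and 90.0).

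The list of immediate early genes, which answer growth factor and stress signals within minutes, stood high in both readouts. It was chosen with earlier results of these data known, so its counts describe the list and do not test it. Of 12 genes 10 had a nearby peak, where 49.7% of all measured genes did, 6 had a vitamin C-only peak, against 23.7%, and 1, Dusp1, an untreated-only peak, against 3.75%. RNA of 11 of the 12 was 2-fold or more higher with vitamin C, against 2.33% of all measured genes, with a median log2 difference of 2.66. Fos had a shared peak 5024 bp from its start, listed at 4.30 and 4.84, and a vitamin C-only peak 12045 bp away listed at 36.6, with RNA of 0.187 and 74.5 RPKM. Fosb had 3 vitamin C-only peaks, the strongest 9983 bp away (22.3), beside a shared one (9.71 and 13.4). Junb had a vitamin C-only promoter peak (21.2) and RNA of 42.2 and 140 RPKM. Btg2, an antiproliferative gene, and Atf3, a stress-induced bZIP factor, had shared promoter peaks listed at 7.62 and 68.9 and at 3.03 and 47.0, with RNA of 1.31 and 9.85 RPKM and of 1.46 and 5.72 RPKM. Dusp1, a phosphatase of MAP kinases, had its peak 24266 bp from the start in the untreated list alone (7.62), yet RNA of 5.00 and 69.8 RPKM, and Egr1 had RNA of 0.987 and 88.4 RPKM with no peak in either library.

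HIF target genes, which answer low oxygen or blocked prolyl hydroxylases, were all measured. This list too was chosen with earlier results of these data known, so its counts are a description and no test. Of 12 genes 9 had a nearby peak, against 49.7% of all measured genes. A vitamin C-only peak lay near 4 of them, against 23.7%, and an untreated-only peak near none, against 3.75%. RNA of 7 of the 12 was 2-fold or more higher with vitamin C, against 2.33% (median log2 difference 1.19). Pdk1 had one of the strongest peaks of both lists, 17th untreated and 4th with vitamin C (84.1 and 257), but RNA of 18.1 and 22.5 RPKM. Ndrg1, a stress-induced gene, followed with 26.5 and 121 and RNA of 12.5 and 40.8 RPKM. Bnip3 had a promoter peak listed at 7.78 and 84.6, and RNA of 15.8 and 107 RPKM, 6.76-fold higher (6.49 to 7.05). Slc2a1 and Vegfa had vitamin C-only promoter peaks (37.6 and 54.1), with RNA of 37.6 and 89.9 RPKM and of 21.3 and 40.2 RPKM. Plod2 and Ddit4 had no peak in either library, yet RNA of 3.88 and 28.8 RPKM and of 46.8 and 117 RPKM.

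**Figure D4:**
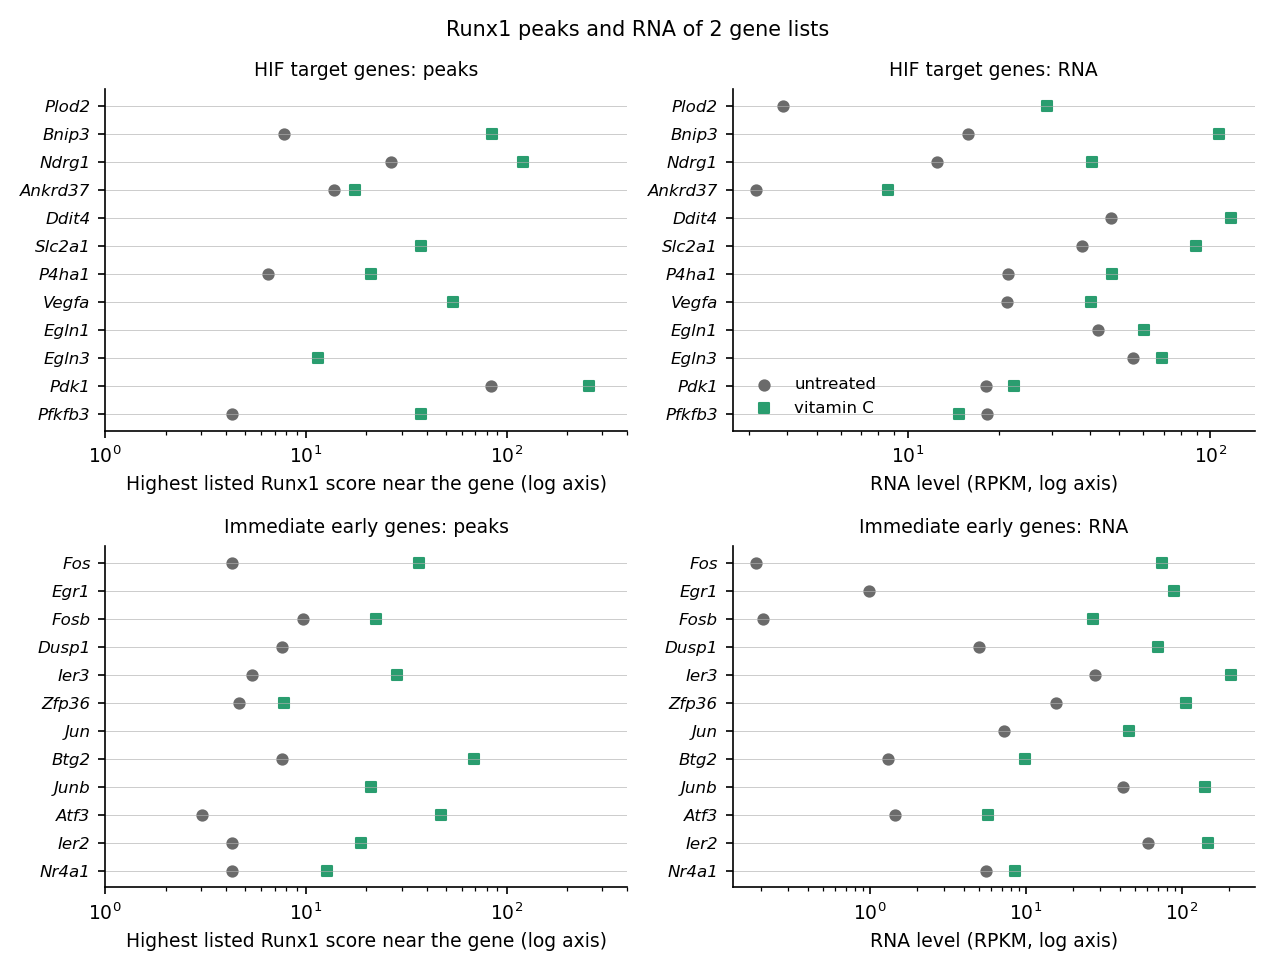
Highest listed Runx1 score near each gene (left, log axis) and its RNA in RPKM (right, log axis) in the untreated (grey circles) and vitamin C (green squares) libraries, for 12 HIF target genes (top) and 12 immediate early genes (bottom), ordered by the RNA difference. A missing symbol on the left means that no peak was listed, as for Plod2, Ddit4, Egln1, Egr1 and Jun, and the scale of the scores is not stated.

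Genes of DNA methylation and of the cell cycle gave single cases. Of 10 methylation and hydroxylation enzymes 5 had a peak, all among the 9 measured, near the 49.7% of all measured genes. Tet2, the dioxygenase that oxidises methylated cytosine, had an untreated-only peak 38807 bp from its start (4.30) and RNA of 12.8 and 6.45 RPKM, while Uhrf1, which recruits Dnmt1, had a shared promoter peak (6.72 and 40.1) and RNA of 55.9 and 91.7 RPKM. Dnmt1 had a vitamin C-only promoter peak (5.54) and an untreated-only peak 7313 bp away (3.29). Of 11 cell cycle and survival genes 7 had a peak, all among the 10 measured, against the same 49.7%. Cdkn1a, the p21 inhibitor, had a weak vitamin C-only promoter peak (3.83) and RNA of 70.2 and 167 RPKM. Ccnd3, cyclin D3, had 3 untreated and 4 vitamin C peaks, 2 of each shared.

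The genes near 1-library peaks with the largest RNA differences went both ways. They were picked by that difference, so their counts describe them only. Of all 9856 measured genes 230 were 2-fold or more higher and 185 lower. Near untreated-only peaks, 8 of the 12 named genes were higher with vitamin C: Dusp1, the cytokine gene Osm (11.6 and 95.8 RPKM), the costimulatory receptor gene Tnfrsf9 (16.8 and 89.2), Klf2 (7.46 and 40.5), the early activation gene Cd69 (34.1 and 153), the channel gene Aqp9 (18.2 and 71.4), Ptger3 and Lbh. Tgfbr3, a TGF-beta coreceptor gene (16.5 and 3.66), Dab2ip (7.80 and 2.05), Gfi1 and Prtn3 were lower. Of these genes Cd69, Aqp9, Dab2ip and Prtn3 also had a vitamin C-only peak. Near vitamin C-only peaks, 11 of the 12 were higher, among them Ptgs2, cyclooxygenase 2, with a promoter peak (5.54) and 0.962 and 8.85 RPKM, Rgs2, a regulator of G protein signalling, with a promoter peak listed at 33.3 and 8.59 and 43.8 RPKM, and Etv5, an ETS factor, with a promoter peak (10.7) and 2.78 and 16.1 RPKM. The exception was Hpgd, which degrades prostaglandins, with a peak 16175 bp away (5.54) and 208 and 20.8 RPKM. The peaks of Hpgd, Ptgs2 and Egr3 were weak, at ranks 5184, 5184 and 5053 of 6250, while that of Rgs2 stood at rank 1583.

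Promoter windows were searched for short motifs, the windows being 250 bases before to 50 after each of 21238 RefSeq starts. The motifs were chosen after the files had been seen. Promoters with a Runx1 peak in both libraries (2395) or with vitamin C only (2059) were GC-rich and held GC boxes and ETS elements, while the RUNX element was less frequent there than in all windows without a peak, an order that did not hold at every GC content. TGTGGT, on either strand, was in 11.2% (10.0 to 12.5%) of windows with a peak in both, 11.9% (10.5 to 13.4%) with vitamin C only and 26.4% (17.6 to 37.0%) of the 87 with an untreated peak only, against 15.8% of the 16697 without a peak and 15.0% of all windows. The variant TGCGGT was in 13.6%, 10.4%, 20.7% and 6.1% of these sets (7.4% of all). The ETS element CCGGAAG was in 23.9%, 25.3%, 20.7% and 8.1% (11.6% of all), and the GC box GGGCGG in 87.5%, 77.7%, 48.3% and 36.4% (46.2% of all). The AP-1 element TGANTCA was in 3.1%, 3.7%, 0.0% and 8.0% (7.0% of all). Median GC content was 65.7%, 62.0%, 60.0% and 53.7%.

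Against 4880 windows without a Runx1 peak that overlapped H3K27ac in both conditions, the ETS and TGCGGT shares of the shared windows were closer but still higher (19.2% and 8.4%), and that of TGTGGT was alike (12.5%). GC content was not matched in this comparison, with medians of 58.7% in these windows and 65.7% in the shared ones. Among windows of 50 to 60% GC, TGTGGT was in 15.7% with a peak in both and 17.1% with none. The shares were 11.4% and 10.6% at 60 to 70% GC, and 6.60% and 3.64% above 70%, so the order was the other way in these 2 ranges. CCGGAAG was in 25.8% and 15.0% of windows of 60 to 70% GC. A match is a description of the letters and not a bound site, and distal peaks could not be searched because no genome sequence was used here.

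**Figure D5:**
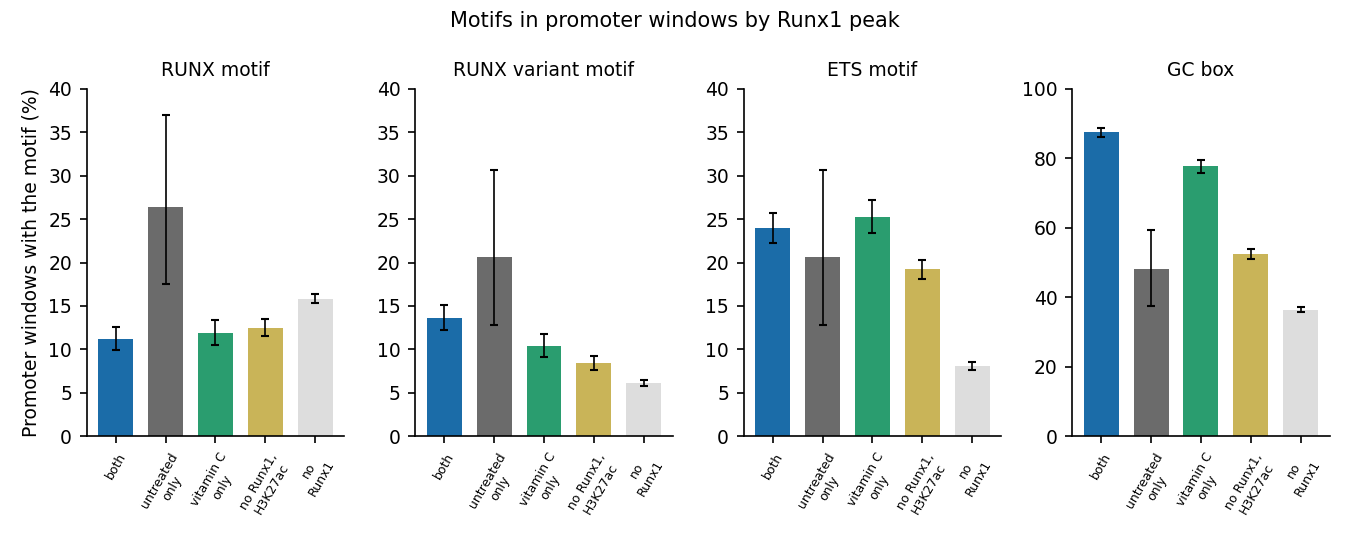
Share of promoter windows (%, vertical axes, which differ for the GC box) that hold the RUNX element, its variant, the ETS element or a GC box, for windows with a Runx1 peak in both libraries, untreated only or vitamin C only, without a Runx1 peak but with H3K27ac in both conditions, and without a Runx1 peak; bars are 95% exact intervals. The RUNX element stands at 11.2 to 12.5% in 3 of the sets and at 26.4% in the 87 untreated-only windows, whose interval is wide, and the GC box stands at 87.5% in the first set and 36.4% in the last.

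Runx1 peaks rarely met the deposited methylation regions. None of the 6 region lists, which held 3789 to 8374 regions with no stated direction or threshold, overlapped more than 1% of either Runx1 list. The largest counts were 41 vitamin C peaks (0.656%) in the WGBS regions named iMR and 30 (0.480%) in the hMeDIP regions named iHR. MeDIP regions named iMR met 1 untreated and 1 vitamin C peak.

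The RNA of these cells carried the marker genes of myeloid progenitors. All 10 of them were measured, with summed levels of 4197 RPKM untreated and 2465 RPKM with vitamin C. None of 6 B-cell and 7 T- and NK-cell markers reached 1 RPKM. Mpo stood at 796 and 131 RPKM, Kit at 32.1 and 5.07 and Prtn3 at 285 and 107, each 2-fold or more lower with vitamin C. Among all measured genes 1.88% were. Cd34 stood at 299 and 498. Of 9 mast cell and basophil markers 8 were measured, none of which had a nearby Runx1 peak, where 49.7% of all measured genes had one. The sums of the mast cell and basophil markers, 2121.5 and 2862 RPKM, were mostly Cpa3, a mast cell protease (1863 and 2488). At lower levels, 3 of these markers were 2-fold or more higher with vitamin C, beside 2.33% of all measured genes. They were Cma1 (0.359 and 14.6), Ms4a2 (1.23 and 5.78) and Gata1 (1.06 and 4.21). Of 7 erythroid markers 3 were measured, with sums of 341 and 389 RPKM, nearly all Hbb-bs (339.9 and 380.0), beside Hba-a1 (0.135 and 4.12) and Hba-a2 (0.227 and 3.66). Of 6 megakaryocyte markers 3 were measured (162 and 155 RPKM), none past 2-fold. The part of such cells in the Runx1 lists was not tested. The RNA libraries summed to 86804487 and 111453443 counts.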

How the data were processed

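Runx1, PU.1 and histone peaks were listed by the authors per library. BWA, SAMtools 0.1.2 and 0.1.16, Picard, MACS2 2.1.0.2 and build mm10 are named in the submitters' processing notes, without role or settings. The deposited Runx1 and PU.1 files give a score per peak whose scale is not stated. The deposited histone files give either a p-value or a q-value, used only to rank peaks for an alternative. The deposited RNA files hold read counts per gene (sums 86804487 and 111453443) and the authors' RPKM. No source used here names the counter or the annotation. Methylation region lists give positions only.

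Repeated intervals were removed (139 untreated, 337 vitamin C), keeping the highest score. Peaks were shared at an overlap of 1 bp. Gene starts came from RefSeq (GRCm38.p6): the promoter table for 17492 genes and, for 4395 genes without an entry, both ends of the gene, since no strand was given, so 1 of those ends is not a start. A promoter peak lay within 1 kb of a start, a distal peak elsewhere, and the nearest start within 50 kb gave the nearby gene. RNA differences were log2 of RPKM plus 0.5, for genes of at least 1 RPKM in 1 or both libraries. Intervals of an RNA ratio come from the counts and cover counting error only.

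Each condition had 1 library, so no test was made. Genes were named by rule: nearest to the 10 strongest peaks of each set, the 10 with most peaks per library, the 12 with the largest RNA difference near each 1-library set (at least 5 RPKM), list members with a peak, and Runx1, Cbfb, Spi1 and Csf1r. The members and lists were chosen with earlier results of these data known. Alternatives changed the overlap, promoter distance, start table, list lengths, fold, filter and pseudocount; splitting peaks by promoter and distal position, and the motifs, were added after the files had been seen. Input libraries were not analysed here. Overlap and count functions were tested on simulated data. Python 3.11.15, pandas 2.3.3, numpy 2.4.6, SciPy 1.17.1 and matplotlib 3.10.9 were used.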

Additional observations from a re-analysis of the deposited data

How the results depend on the processing

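Of 72 alternative values, 37 lay within the counting interval of the reported value and 35 did not. The share of untreated and vitamin C peaks found in the other list (81.8% and 50.7%) was 71.0% and 44.4% with an overlap of at least 50% of each peak, 85.1% and 52.9% for the higher-scoring 50% of each list and 69.4% and 68.6% with lists of equal length; keeping repeats gave 52.4% for vitamin C. Distal untreated peaks found again (52.6%) were 62.8% with promoter-table starts only. Promoter peaks found again (95.5%) were 94.1% at 2.5 kb, 96.2% with a gap of 500 bp and 94.4% for the higher-scoring 50%. The promoter share of untreated-only peaks (17.0%) was 23.3% at 2.5 kb and 30.2% with equal lengths, and of vitamin C-only peaks (71.6%) 75.0%, 79.3% and, with table starts only, 59.9%. The promoter share of all untreated peaks (68.1%) was 71.6% at 2.5 kb, 51.5% over the start and 58.1% with table starts, and with vitamin C (75.6%) 78.7%, 63.2% and 64.0%. Vitamin C-only peaks in H3K27ac (81.2%) were 85.4% with the gap, 85.3% for higher scores and 66.1% with the stronger 50% of the H3K27ac list, which gave 70.5% for untreated-only peaks (78.4%) and so turned their order round. In PU.1 of the same condition, vitamin C-only peaks (16.7%) stood at 21.8% with the gap and 9.28% with the stronger 50% of the PU.1 list, and untreated-only peaks (59.1%) at 66.6% and 41.2%. At 1.5-fold, 6.26% of genes near vitamin C-only peaks were higher and 4.28% lower, and 9.19% and 8.92% near untreated-only peaks, beside 6.15% and 6.23% of all measured genes; a filter of 5 RPKM gave 0.732% lower near vitamin C-only peaks. The cause of these shifts was not tested. Unknown ChIP depth limits every share. No paired analysis was possible because each condition had 1 library.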

Other observations

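Several genes had clusters of Runx1 peaks. In the vitamin C list, Dsg2, a desmosomal cadherin gene, had 7 peaks nearby, 1 of them shared, with scores of 2.46 to 28.3. They lay 12541 to 23976 bp from an end of the gene, outside every histone and PU.1 peak, and Dsg2 had no RNA reads in either library. Nfic, a nuclear factor I gene, had 5 with 1 shared (4.02 to 16.7). In the untreated list, Cic, a transcriptional repressor gene, had 4 promoter peaks, all shared, while Zfp608 had 4 with 1 shared, and Actg1, gamma actin, had 3 with none shared. Bbc3, the apoptosis gene PUMA, had 3 untreated and 4 vitamin C peaks, 3 of each shared.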
